A study of Schizosaccharomyces pombe with 6 samples.

Results

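The 6 genes described here encode the enzymes that turn CDP-diacylglycerol and serine into phosphatidylcholine in the fission yeast *Schizosaccharomyces pombe*. They are the phosphatidylserine synthase gene *pps1* (SPCC1442.12), the phosphatidylserine decarboxylase genes *psd1* (SPBC16E9.18), *psd2* (SPAC25B8.03) and *psd3* (SPAC31G5.15), and the phospholipid methyltransferase genes *cho2* (SPBC26H8.03) and *cho1* (SPBC337.16). The genes were selected on their place in this pathway and with earlier results on their difference between the strains known, so neither the choice nor the values are a test of the pathway. All 6 were found by identifier among the 6345 genes of the deposited table, and the description of each in that table names the enzyme given above.

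The study compared polyadenylated RNA of cells that lack *mkt1*, a post-transcriptional regulator, with that of wild-type cells. There were 3 *mkt1Δ* libraries (strain EHB2196, in which a nourseothricin resistance cassette replaces *mkt1*) and 3 wild-type libraries (strain EHB7). Both strains are of mating type h+, carry the alleles *ade6-210*, *leu1-32* and *ura4-D18*, and have an *ade6+* reporter inserted in the outer repeat of centromere 1 (*otr1R*). The cultures grew in the rich medium YES at 32°C and were harvested in exponential phase, and each strain is a single genotype.

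The value used for each gene is the authors' average level over the libraries of both strains, in log2 CPM (counts per gene scaled to library size, on a log2 scale). It is a single number per gene, with no error and no value for either strain, so library depths are unknown and no pair of levels below can be said to differ beyond the spread between libraries. The table also holds fold changes and p-values of the authors' own comparison, which were not used, and the levels of *mkt1Δ* and wild-type cells were therefore not set against each other here. Where a gene differs between the strains, its mean, its rank and its ratio to other genes mix the levels of both. The authors' mean for *mkt1* (SPAC139.01c), 6.83 log2 CPM, covers the deletion libraries and the wild-type libraries together and so does not check the strain labels.

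Phosphatidylcholine and phosphatidylethanolamine are major phospholipids of yeast membranes. In the route encoded by these genes, phosphatidylserine synthase joins serine to CDP-diacylglycerol, the decarboxylases remove a carboxyl group from phosphatidylserine to give phosphatidylethanolamine, and the methyltransferases add methyl groups one after another, each taken from S-adenosylmethionine, to give phosphatidylcholine. A separate route, the Kennedy pathway, builds the same lipids from free ethanolamine and choline.

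The first step belongs to *pps1*. Its mean in the authors' table was 7.01 log2 CPM, or 129 CPM. Its coding sequence is short, 723 bases for a protein of 240 residues, so per kilobase of coding sequence the level was 178 CPM. That level exceeded those of 78.4% of the 5042 protein-coding genes with a known coding length, and 1090 genes were higher.

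The decarboxylase step has 3 genes whose levels were far apart. The highest was *psd2*, with a mean of 8.13 log2 CPM (280.0 CPM) in the authors' table and 181 CPM per kilobase of coding sequence, above 78.7% of protein-coding genes. Next was *psd1*, with 7.05 log2 CPM (132 CPM) and 101 CPM per kilobase, above 65.4% of protein-coding genes. The lowest was *psd3*, with 32.0 CPM and 11.0 CPM per kilobase. Only 7.60% of protein-coding genes had a lower level per kilobase than *psd3*, and 4658 had a higher one. Almost all of *psd3* is annotated opposite another protein-coding gene, *dpm1*, as described below. The effect of this overlap on the level of *psd3*, and so on its rank and ratios, was not tested. Of the summed level of the 3 decarboxylase genes per kilobase of coding sequence, 292 CPM, *psd2* made up 61.8%, *psd1* 34.5% and *psd3* 3.77%. These shares depend on the length used. The level of *psd2* was 1.79 times that of *psd1* with coding length and 1.36 times with summed exons. The level of *psd2* was 16.4 times that of *psd3* per kilobase of coding sequence, and that of *psd1* was 9.13 times that of *psd3*. With summed exons as the length these ratios were 10.4 and 7.61. These genes also differ in structure in the ASM294v3 annotation. The coding sequences of *psd1* (1314 bases, 437 residues) and *psd2* (1551 bases, 516 residues) have no intron, whereas that of *psd3* (2904 bases, 967 residues) is interrupted by 7.

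The methyltransferase step has 2 genes, of which *cho2* encodes the enzyme for the first methylation and *cho1* the enzyme for the later ones. By reads alone *cho2* had the highest mean of the 6 genes in the authors' table, 8.16 log2 CPM (286 CPM), and *cho1* had 7.66 log2 CPM (202 CPM). Per kilobase of coding sequence the order turned round, because the coding sequence of *cho2* has 2718 bases (905 residues) and that of *cho1* 591 bases (196 residues). The level of *cho1* was then 343 CPM per kilobase, above 88.1% of protein-coding genes, and that of *cho2* was 105 CPM per kilobase, above 66.4%. The level of *cho1* was 3.26 times that of *cho2* on this scale, and 3.20 times with the exons of the annotated transcript in place of the coding sequence.

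**Figure D1:**
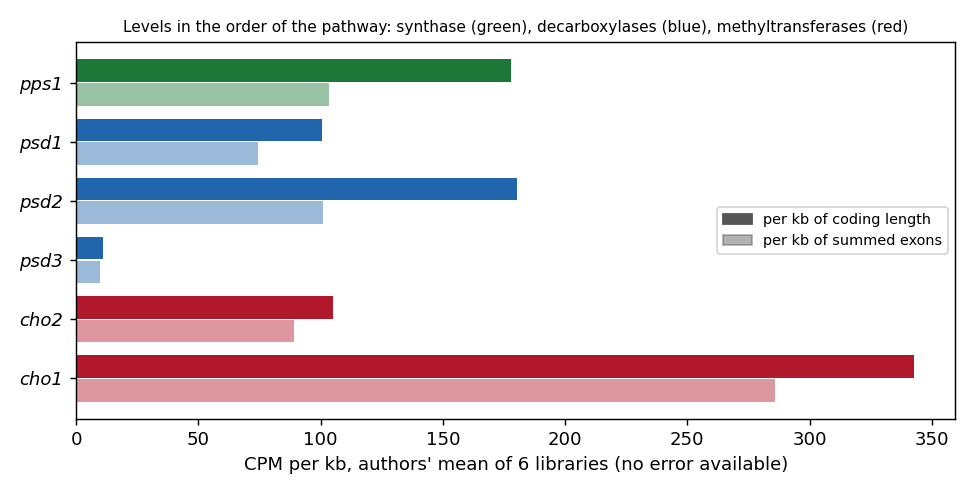
Level of each of the 6 genes in CPM per kilobase (horizontal axis), in the order of the pathway from top to bottom, as the authors' mean over the 6 libraries, with no error bars because the table gives none. Full colours are per kilobase of coding length and pale colours per kilobase of summed exons; *cho1* is highest on both (343 and 286 CPM per kilobase) and *psd3* lowest (11.0 and 9.75).

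Along the pathway, the summed level of the decarboxylase genes was 1.64 times that of *pps1*, and the summed level of *cho2* and *cho1*, 448 CPM per kilobase, was 1.53 times that of the decarboxylase genes. These sums add transcripts of enzymes with different partners and activities and are given as levels of RNA only. They were taken per kilobase of coding sequence only. Their ratios depend on the length used, because the levels with summed exons, given below, shift by different amounts from gene to gene. The 6 genes, out of 6345 in the whole table, together took 0.106% of its CPM.

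The order of the levels per kilobase of coding sequence, high to low, was *cho1*, *psd2*, *pps1*, *cho2*, *psd1* and *psd3*. The levels of *psd2* and *pps1* stood at a ratio of 1.02, and those of *cho2* and *psd1* at a ratio of 1.04. With summed exons as the length, *pps1* (103 CPM per kilobase) stood above *psd2* (101 CPM per kilobase), so their order depended on the length used. The untranslated exon bases of the annotation number 522 for *pps1* and 1222 for *psd2*. The other places in the order were as before on that scale, with 286 CPM per kilobase for *cho1*, 89.3 for *cho2*, 74.2 for *psd1* and 9.75 for *psd3*. With the whole span of the gene as the length, introns included, *cho2* (89.3 CPM per kilobase) stood above *pps1* (75.7 CPM per kilobase), and the order was *cho1*, *psd2*, *cho2*, *pps1*, *psd1* and *psd3*.

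Set against all protein-coding genes, the median of the 6 genes was 7.10 on the scale of log2 CPM per kilobase of coding sequence, beside a median of 5.93 over the 5042 protein-coding genes. Of the 6, 5 lay above that overall median and 3 (*cho1*, *psd2* and *pps1*) above the upper quartile of all protein-coding genes, 7.24. The same 3 lay above it with summed exons as the length, whereas with gene span *cho2* lay above it and *pps1* did not. The gene below the overall median was *psd3*, which also lay below the lower quartile of 4.85.

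**Figure D2:**
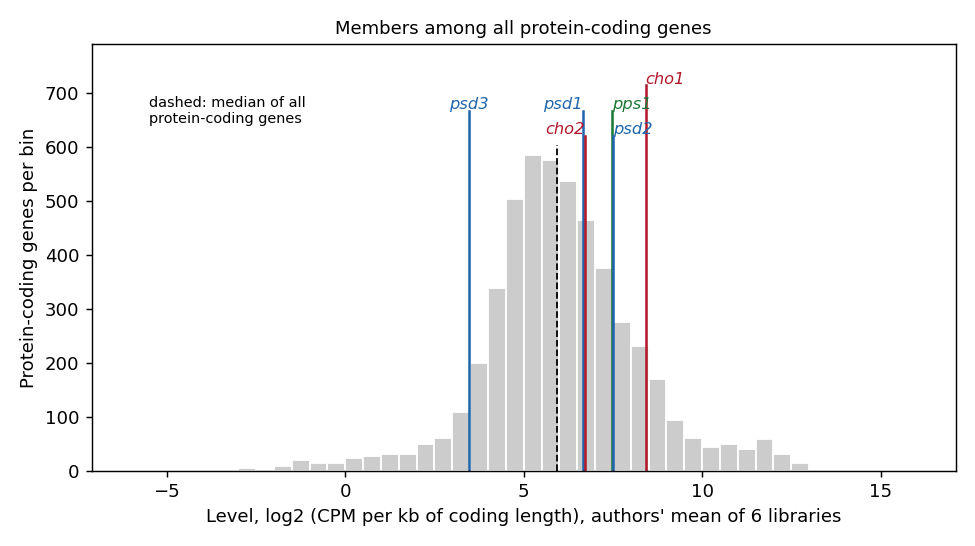
Distribution of the authors' mean level over 5042 protein-coding genes (grey bars, number of genes per bin of 0.5) on the scale of log2 CPM per kilobase of coding length, with a vertical line for each of the 6 genes. The dashed line is the median of all, 5.93; *psd3* at 3.46 is the gene to its left, and *cho1* at 8.42 is farthest to the right.

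Other genes of phospholipid and glycerolipid metabolism were taken by words in their descriptions, which gave 14 genes. They include a predicted phosphatidylglycerol phospholipase C gene, whose enzyme breaks a phospholipid down. The words missed some enzymes spelled another way, as given in the last section. Of the 14, 10 lay above the overall median of protein-coding genes, among them that phospholipase C gene, and 3 above the upper quartile. The median of the 14 was 6.72 on the scale of log2 CPM per kilobase of coding sequence. On that scale it was 7.10 for the 6 genes and 5.93 for all protein-coding genes. The highest of the 14 was *ptp4* (SPBC3D6.05), described in the table as a predicted enzyme that makes CDP-diacylglycerol from phosphatidate, with 346 CPM per kilobase. It was the 1 gene of the 14 with a level above *cho1*. The lowest was *tam41* (SPBC1A4.06c), described as the predicted mitochondrial enzyme of that reaction, with 20.1 CPM per kilobase. All 14 had a level above that of *psd3*. Of the 14, 3 lay above *psd2* and *pps1*, 7 above *cho2* and 8 above *psd1*. The genes of the Kennedy pathway among them were *ept1* (SPAC22A12.10), which encodes the last enzyme of that route and had 214 CPM per kilobase, *pcy1* (SPCC1827.02c), whose enzyme activates choline phosphate with CTP, with 125, *ect1* (SPAC15E1.05c), whose enzyme does so for ethanolamine phosphate, with 55.6, and *eki1* (SPAC13G7.12c), a choline or ethanolamine kinase gene, with 42.9 CPM per kilobase. These 4 were picked out after their values were seen, and the descriptions of all 4 mark the function as predicted. Their levels lay between those of *cho1* and *psd3*, as did those of all the 14 genes except *ptp4*.

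**Figure D3:**
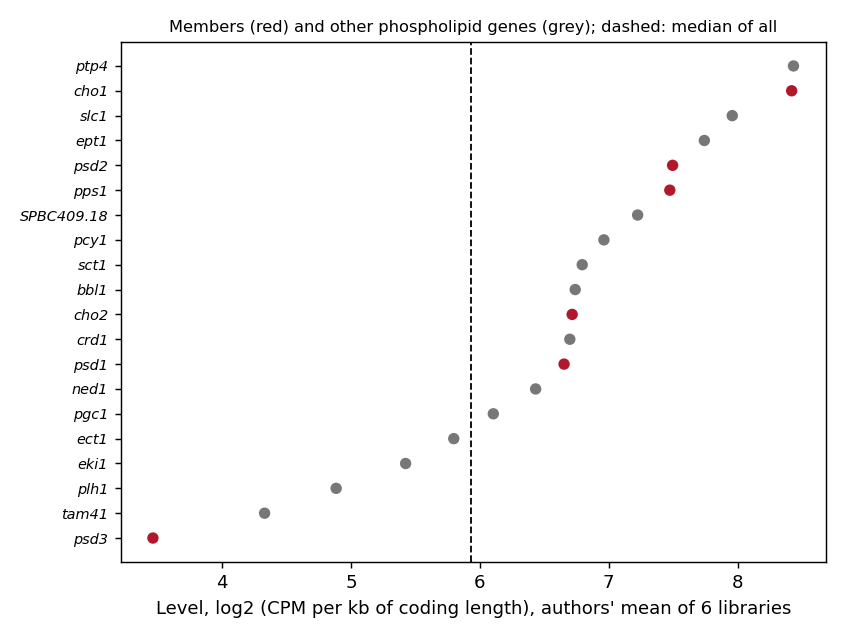
Authors' mean level (horizontal axis, log2 CPM per kilobase of coding length) of the 6 genes (red) and the 14 other phospholipid genes (grey), sorted from high at the top to low at the bottom; the dashed line is the median of all protein-coding genes. The red points run from 8.42 for *cho1* to 3.46 for *psd3*, the lowest of the 20 points.

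Some of these levels are uncertain where genes overlap. The libraries kept strand information, but whether the counting used it is not given in the sources used here. In the ASM294v3 annotation *psd3* overlaps *dpm1* (SPAC31G5.16c) on the opposite strand over 3512 of the 3613 bases of *psd3*, and *dpm1*, with 7.40 log2 CPM in the authors' table, has a far higher mean than *psd3*. Its part in the low level of *psd3* was not tested. The other overlaps with protein-coding genes were shorter. They were 450 bases between *pps1* and *sqs2* (SPCC1442.13c, 3.59 log2 CPM in the authors' table), 31 bases between *cho2* and *iml1* and 26 bases between *psd2* and *mss51*. For *cho1* and *psd1* no overlapping protein-coding gene is annotated, but *psd1* shares 86 bases with a small nucleolar RNA gene on the opposite strand. Long non-coding RNAs annotated on the opposite strand overlap the other 5 genes, over 987 bases of *pps1*, 381 of *cho2*, 374 of *cho1*, 278 and 60 of *psd2* (a pair of RNAs) and 58 of *psd3*. None of these non-coding RNAs was matched to a value in the table.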

How the data were processed

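Strains, libraries and labels are those of the study, with 3 *mkt1Δ* and 3 wild-type samples. Per the labels and methods, the authors used cutadapt 1.8.3 for trimming, STAR 2.5 for alignment to ASM294v2 (release 30), HTSeq 0.6.1 for union counts of each gene and, after a filter on low reads, edgeR 3.12.0. The authors deposited 1 table of 6345 genes with an average level in log2 CPM over both strains, which was used. It also holds their own fold changes, p-values and adjusted p-values, which were not used. The planned comparison of the strains assumed values per library and was not made.

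CPM was taken as 2 to the power of the deposited log2 value and divided by coding length in kilobases. Whether the authors averaged before or after taking the log is not given in the sources used here. Names, lengths and overlaps came from RefSeq's ASM294v3 annotation, another assembly than the authors', so no coordinates or sequences are given. By identifier, ignoring case, 6299 of 6345 genes matched, of which 5042 were protein-coding with a coding length. Ranks are the share of those genes with a lower level. The members and lists were chosen with earlier results of these data known. The genes named are the 6 members, *mkt1*, and the highest and lowest of the other phospholipid genes; the Kennedy pathway genes and the overlapping genes were chosen later, with the values in view. Alternatives were gene span or summed exons as the length, all genes with a span, a minimum of 1 CPM, and a wider list. Python 3.11.15, numpy 2.4.6, pandas 2.3.3 and scipy 1.17.1 were used.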

Additional observations from a re-analysis of the deposited data

How the results depend on the processing

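No paired analysis was possible because the table gives no value per library. Settings that need such values (other scaling, filters, DESeq2, a replicate block, leaving out each library) were therefore not run. The ranks have no replicate error, so a move of a rank cannot be set against the spread between libraries. The median rank of the 6 genes, above 72.4% of protein-coding genes, was 74.0% with gene span as the length, 78.9% among all genes with a span, and 75.7% with summed exons, an alternative chosen after seeing the data. The median rank of the 14 other phospholipid genes, 66.5%, was 70.0% with gene span and 70.0% with summed exons. For single genes the range over the settings was 6.09% to 22.0% for *psd3*, 64.8% to 76.8% for *psd1*, 65.8% to 80.6% for *cho2*, 71.9% to 78.4% for *pps1*, 77.1% to 82.6% for *psd2* and 87.9% to 92.8% for *cho1*, so *psd3* ranked lowest and *cho1* highest under every setting run. Except for *pps1*, each upper end came from ranking among all 6299 genes with a span, not only protein-coding ones. Among protein-coding genes the highest ranks were 9.52% for *psd3*, 71.5% for *psd1*, 76.0% for *cho2*, 78.7% for *psd2* and 91.0% for *cho1*. Of the words that picked the other phospholipid genes, some missed enzymes spelled another way; adding *pis1*, *dga1* and *pgs1*, chosen after seeing the data, gave a median rank of 66.8%.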
